A study of Mus musculus with 2 samples.

Results

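Invariant natural killer T (NKT) cells were picked out of tumor-infiltrating T cells by the join of their T cell receptor (TCR) alpha chain. Mice on the C57BL/6 background carried intradermal tumors of B16 melanoma cells or of B16–IL-33 cells, a B16 line engineered to secrete IL-33. On the ninth day, T cells sorted on TCR-β were labelled with hashtag antibodies of their tumor and joined into 1 pool, from which a gene expression, a hashtag and a TCR library were made. The study's methods also describe a sort for CD4+ and CD8+ T cells, a gate that would leave out NKT cells with neither coreceptor on their surface. The mice received no treatment, both tumors are transplants of the same melanoma line, and their number and age are not given in the sources used here. Because 1 pool is 1 sample, no test across animals was possible. A cell was kept with at least 200 detected mouse genes and under 5% mitochondrial transcripts, which left 9844 of 14035 barcodes, 4825 of them with an assembled alpha chain (TRA) contig. A cell was a member if a contig joined the variable segment TRAV11 to the joining segment TRAJ18. This gave 78 cells, 1.62% of the cells with a TRA contig (95% interval 1.28 to 2.01). The TCR library held 94 barcodes with this join, of which 80 were in the gene expression library and 2 failed the filter. The comparison cells were 1838 cells with another TRA contig, without the join and with no transcript of *Cd8a*, *Cd8b1* or *Foxp3*, a group chosen to hold mainly CD4+ conventional T cells.

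Invariant NKT cells recognize lipids presented by CD1d instead of peptides presented by classical MHC molecules. Their alpha chain is nearly fixed, and in mice it pairs with beta chains of a few families, TRBV13, TRBV29 and TRBV1. They leave the thymus as primed cells under the transcription factor PLZF, encoded by *Zbtb16*, and carry natural killer (NK) receptors. The NKT1, NKT2 and NKT17 subsets are known for T-bet and IFN-γ, GATA3 and IL-4, and IL-17, respectively. They can release cytokines within hours of stimulation.

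The alpha chain chose the cells, so it is described here and supports nothing else. In the mouse genome (GRCm38) the TRAV11 gene lies on the plus strand at chr14:53519303-53519859 and TRAJ18 at chr14:54200777-54200842. The germline ends that meet in the join are shown first, from the start of the conserved cysteine codon of TRAV11 and up to the last base of the third complementarity-determining region (CDR3), followed by the CDR3 sequences of the 4 commonest joins. Capitals mark bases that match neither germline segment.

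TRAV11 germline end: tgtgtggtgggcg
TRAJ18 germline start: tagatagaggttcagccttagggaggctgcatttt
join of 28 cells: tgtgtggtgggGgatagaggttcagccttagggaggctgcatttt
join of 17 cells: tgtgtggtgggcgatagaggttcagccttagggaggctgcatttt
join of 14 cells: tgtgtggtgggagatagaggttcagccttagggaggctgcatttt
join of 8 cells: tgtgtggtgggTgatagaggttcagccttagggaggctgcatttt

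These 4 joins made up 67 of the 78 members (85.9%), and they differ from each other at 1 position, where the segments meet. There were 13 distinct joins, 8 of them seen in 1 cell each. Different joins encoded the same peptide. The commonest CDR3 peptide, of 15 residues, was found in 68 members (87.2%) and was encoded by 5 different joins. The length was nearly fixed as well, since 74 members had a CDR3 of 45 bases. From the conserved cysteine codon on, every base of the CDR3 matched 1 of the 2 germline segments in 33 members (42.3%). In 38 members 1 base matched neither. Bases called before that codon in the longest CDR3 sequences were not compared. The chain was supported by few molecules. The median was 2 unique molecular identifiers (UMIs) a contig, as in the comparison cells, with a highest value of 7, and 36 members had 1 UMI. The contig was marked productive in 66 members and not in 12, of which 8 still carried the commonest peptide. Another TRA contig was present in 23 members.

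The beta chain was not used to choose the cells. A productive beta chain (TRB) contig was found in 73 members and in 1630 comparison cells. The chain with the most UMIs is shown for each of 4 segments, in lower case throughout, since no part of these CDR3 sequences is shared by rule.

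TRBV29 with TRBJ2-1: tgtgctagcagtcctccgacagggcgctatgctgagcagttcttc
TRBV12-2+TRBV13-2 with TRBJ1-2: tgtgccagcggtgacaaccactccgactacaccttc
TRBV1 with TRBJ1-1: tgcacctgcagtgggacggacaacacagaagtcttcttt
TRBV13-1 with TRBJ1-4: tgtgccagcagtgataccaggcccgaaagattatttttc

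The members drew on a narrow set of beta chains. TRBV29 (chr6:41271394-41271881) was present in 26 of 73 members (35.6%, 24.7 to 47.7) against 2.52% of comparison cells (1.81 to 3.40), a difference of 33.1 percentage points (22.2 to 45.2). TRBV13 segments of all kinds were present in 33 members (45.2%, 33.5 to 57.3) against 24.9% (22.8 to 27.1), a difference of 20.3 points (8.41 to 32.6). Most of this came from the joint call TRBV12-2+TRBV13-2, with 24 members (32.9%) against 12.2%. Each of these segments was also called singly in other contigs. TRBV1 was present in 9 members (12.3%) against 7.55%, and the interval of its difference, −1.90 to 14.6 points, included 0. Together the 3 families covered 67 of 73 members (91.8%, 83.0 to 96.9) against 34.7% of comparison cells (32.4 to 37.1). The difference was 57.1 points (47.9 to 62.7). All intervals here cover 95% of the counting error only, since there was 1 pool.

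**Figure D1:**
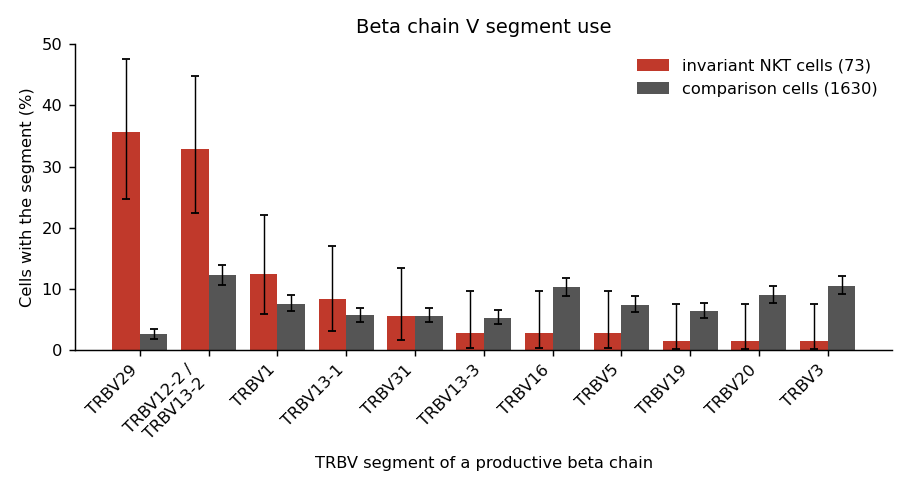
Share of cells with each TRBV segment in a productive beta chain, in percent, for 73 invariant NKT cells and 1630 comparison cells, with bars for the exact 95% intervals. TRBV29 stands at 35.6% against 2.52%, and TRBV3, TRBV16 and TRBV20 at 1.37%, 2.74% and 1.37% against 10.5%, 10.2% and 8.96%.

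Other segments were correspondingly scarce. TRBV3 was found in 1 member (1.37%) against 10.5% of comparison cells, a difference of −9.12 points (−11.2 to −2.92). TRBV20 was found in 1 member against 8.96%, and TRBV16 in 2 members (2.74%) against 10.2%. The intervals of both differences lay below 0. For every segment not named here, the interval of the difference included 0. Members used 14 V genes and comparison cells 22, but the 73 members gave fewer chances to find a rare segment. The J segments showed no difference that was detectable with 73 cells. The commonest, TRBJ2-7, was found in 18 members (24.7%) against 18.7%, with an interval of the difference from −3.60 to 17.6 points. The median CDR3 length of the beta chain was 42 bases in both groups, and that of the members ran from 30 to 54.

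The gene expression library also read these segments, because it was made from the 5′ end of the transcripts. It came from the same cells as the TCR library, so the 2 readings are not independent. *Trbv29* transcripts stood at 428 CPM (UMIs of the gene per 1000000 UMIs) in members and 35.2 in comparison cells, 12.2-fold higher (9.73 to 15.1), with UMIs in 28 members. *Trbv13-2* was 2.09-fold higher and *Trbv1* 2.04-fold higher, while *Trbv13-1* reached 1.36-fold (0.909 to 1.98). *Trbv12-2* had 6 UMIs in members against 117 of *Trbv13-2*. *Trbv20* was the lowest, at 15.9 CPM against 99.4 (6.27-fold lower).

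The members did not share beta chains with each other. Their 81 productive TRB contigs held 81 distinct beta chains, so that 0 of 73 members shared one with another member, which allows a share of up to 4.11%. Because 1630 cells have more chances to match than 73, each chain was also looked up in all barcodes of the TCR library. A beta chain in another barcode was found for 2 members (2.74%, 0.334 to 9.55) and for 417 comparison cells (25.6%, 23.5 to 27.8). The 4 barcodes that matched the 2 members had no invariant join. The 78 members with nearly the same alpha chain were thus separate by their beta chains as far as these were recovered.

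The cells had the depth of ordinary T cells in the pool. Members held 315348 UMIs in all, with a median of 3308.5 a cell (1063 to 14607), against 6133984 and a median of 2718.5 in comparison cells. The median was 3613.5 in 1670 *Foxp3*-positive cells and 5146 in 925 CD8 cells, which are used below as other T cells with another TRA contig. A gene with no UMI in the members can still stand at up to 9.51 CPM. Of the CD3 genes of the T cell receptor complex, *Cd3e* stood at 844 CPM in members and 855 in comparison cells, and *Cd3d* at 1218 and 1028 (1.18-fold, 1.07 to 1.31). *Cd247*, the zeta chain of the complex, was 0.60-fold (0.433 to 0.808). *Cd4*, the class II coreceptor, was lower. It was detected in 25 members (32.1%, 21.9 to 43.6) and in 49.5% of comparison cells (47.1 to 51.8), and 51 members had no UMI of *Cd4*, *Cd8a* or *Cd8b1*. A cell that passed the CD4 and CD8 sort can lack these transcripts at this depth, so the members cannot be called coreceptor-negative. *Cd8a* was detected in 2 members and *Foxp3* in 4, whereas the comparison cells had none by rule. Of 6 NK cell markers 4 had 0 UMIs in the members (*Ncr1*, *Klra4*, *Klra8* and *Klri2*), *Eomes* had 1 and *Irf8* 12, with 6 of them in 1 cell, for a sum of 41.2 CPM against 64.2. Of 6 gamma delta T cell markers 3 had 0 UMIs (*Trdc*, *Sox13* and *Trdv4*), whereas the constant genes *Tcrg-C1*, *Tcrg-C2* and *Tcrg-C4* brought the sum to 203 CPM against 14.0. The zeros carry little information, because at the level of the comparison cells fewer than 1 UMI of each gene at 0 would be expected in the members. The part of gamma delta T cells in these values was not tested. No doublet caller was run. Of the members, 8 had 2 productive beta chains.

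The markers of this cell type matched the label. *Zbtb16*, which encodes PLZF, stood at 117 CPM in members (82.6 to 162) and at 4.08 in comparison cells (2.64 to 6.02), a ratio of 28.8 (16.9 to 49.9). The gene lies on the minus strand at chr9:48654297-48836222. It was detected in 27 of 78 members (34.6%), with 1 to 3 UMIs each, and in 1.03% of comparison cells. *Zbtb16* was rarer still in cells that should lack it, at 0.63 CPM in *Foxp3*-positive cells and 0.46 CPM in CD8 cells, which were deeper. *Il4* (chr11:53602982-53618669), the cytokine of NKT2 cells, stood at 92.0 CPM (61.6 to 132) against 6.03, a ratio of 15.2 (9.04 to 25.5), with UMIs in 20 members. *Klrb1c* (chr6:128778485-128789215), which encodes the NK1.1 receptor, stood at 60.3 CPM (36.3 to 94.1) against 4.73, a ratio of 12.7 (6.75 to 23.5), with UMIs in 11 members.

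These shares depended on depth. With every cell thinned to 1500 UMIs, which left out 2 members and 195 comparison cells, *Zbtb16* was detected in 17.1% of members (9.43 to 27.5) and 0.61% of comparison cells, *Il4* in 15.8% and 0.55%, and *Klrb1c* in 6.58% and 0.55%. At least 1 of the 3 markers was detected in 47 members (60.3%, 48.5 to 71.2) and in 3.16% of comparison cells (2.40 to 4.06). No member held all 3. At this depth, members that lack these transcripts cannot be told apart from members in which they were missed.

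Across the transcriptome the members were close to the comparison cells. Genes were ranked if at least 10 UMIs were expected in the members, which held for 3669 genes, and a ratio of CPM of at least 2 or at most 0.5 was taken as past the fold. There is 1 sample and so no test. Of the 3669 genes, 87 (2.37%) were higher by this measure and 149 (4.06%) lower. The 95% counting interval excluded 1 for 87 and 146 of them. That adds little, because the limits on UMIs and fold nearly ensure it. The interval also takes UMIs as independent, so a gene carried by 1 cell can pass. The median log2 ratio of all ranked genes was −0.03. When the CPM totals left out ribosomal protein, mitochondrial and TCR segment genes, the median moved by 0.10 on the log2 scale and the split became 104 higher and 102 lower. Of the named or listed genes past the fold, 14 of 21 higher and 23 of 33 lower genes stayed past it under each of up to 13 other settings.

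**Figure D2:**
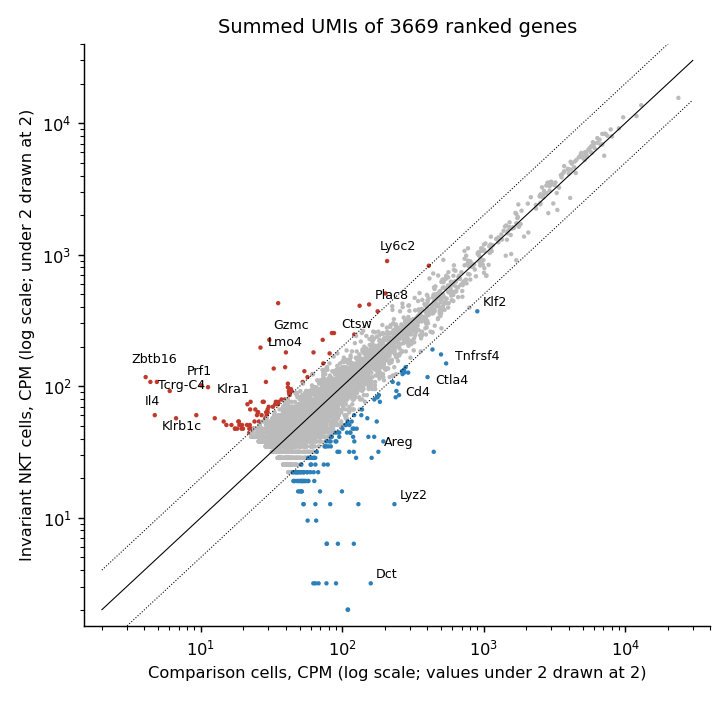
Each point is 1 of the 3669 ranked genes, with its CPM in comparison cells (horizontal) and in invariant NKT cells (vertical), both on log scales. The solid line marks equal levels and the dotted lines a ratio of 2 either way. Outside the TCR segments, *Zbtb16*, *Tcrg-C4*, *Il4* and *Klrb1c* lie farthest above the lines, and *Dct* and *Lyz2* are among the genes farthest below.

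The 10 highest ratios outside the TCR segments were held by *Zbtb16*, *Tcrg-C4*, *Il4*, *Klrb1c*, *Prf1*, *Klra1*, *Arl4d*, *Lmo4*, *Gzmc* and *Rbpms*. *Lmo4*, a LIM-only transcriptional adaptor, stood at 197 CPM against 26.4 (7.44-fold, 5.46 to 10.0) and was detected in 27 members, as many as *Zbtb16*. *Arl4d*, a small GTPase, was 8.54-fold higher (4.62 to 15.2) with UMIs in 15 members. *Rbpms*, an RNA-binding protein, was 6.48-fold higher (3.64 to 11.1) with UMIs in 18 members. These 3 genes were thus spread over many cells. *Prf1* and *Gzmc* were not. Of the 32 *Prf1* UMIs of all members, 30 came from 1 cell, and so did 62 of the 71 *Gzmc* UMIs.

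That cell was the member with the most *Ccl4* UMIs. It held 12691 UMIs in all, 9 UMIs of *Cd8a*, 3 TRA contigs and no UMI of *Zbtb16*, *Il4* or *Klrb1c*. It also held 152 of the 160 *Ccl4* UMIs, 38 of the 39 *Ccl3* UMIs, 64 of the 154 *Gzmb* UMIs and 30 of the 80 *Ifng* UMIs of the members. Without it, the ratio was 0.65 for *Prf1*, 0.98 for *Gzmc*, 0.13 for *Ccl4*, which was 2.51 with it, and 0.04 for *Ccl3*, which was 1.63. *Id3*, an inhibitor of E proteins, depended on another cell, which held 32 of its 44 UMIs.

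Transcripts of the gamma chain locus were present in many members. *Tcrg-C4* (chr13:19344558-19352756) stood at 108 CPM against 4.40, a ratio of 24.5 (14.3 to 42.2), with UMIs in 20 members and at most 5 in any. The variable segment *Trgv2* stood at 108 CPM against 4.89 (22.04-fold, 13.1 to 37.3), with UMIs in 18 members. *Tcrg-C1* and *Tcrg-C2*, which had too few UMIs to be ranked, stood at 38.1 CPM against 2.61 and 57.1 against 5.38. The constant genes of this locus are near copies of each other, so the split between them is uncertain. *Tcrg-C4* was at 0.88 CPM in *Foxp3*-positive cells and 3.81 CPM in CD8 cells.

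Among the regulators of innate-like T cells, 2 of 12 ranked genes were higher (*Zbtb16* and *Id3*) and 1 was lower. Over all ranked genes 2.37% were higher and 4.06% lower. *Id3* had 32 of its 44 UMIs in 1 cell, and its ratio was 0.68 with contigs of at least 2 UMIs. *Id2*, the other inhibitor of E proteins, stood at 913 CPM against 518 (1.76-fold, 1.56 to 1.99). *Gata3*, the factor of NKT2 cells, stood at 165 CPM against 114 (1.44-fold, 1.07 to 1.91). *Tbx21*, which encodes T-bet, stood at 60.3 CPM against 33.4 (1.80-fold, 1.06 to 2.89). The lower gene was *Fcer1g*, an adaptor of Fc and NK receptors that macrophages also express, with 41.2 CPM against 168. Its ratio of 0.25 became 1.36 once cells with a UMI of the myeloid and melanoma markers were left out of both groups. Other regulators lay below 1 without passing the fold. *Bhlhe40* stood at 121 CPM against 227 (0.53-fold, 0.374 to 0.731), and *Maf* was 0.69-fold (0.506 to 0.925). *Slamf1*, *Runx3*, *Slamf6* and *Sh2d1a*, at 0.52-, 0.74-, 1.03- and 1.27-fold, had intervals that included 1.

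**Figure D3:**
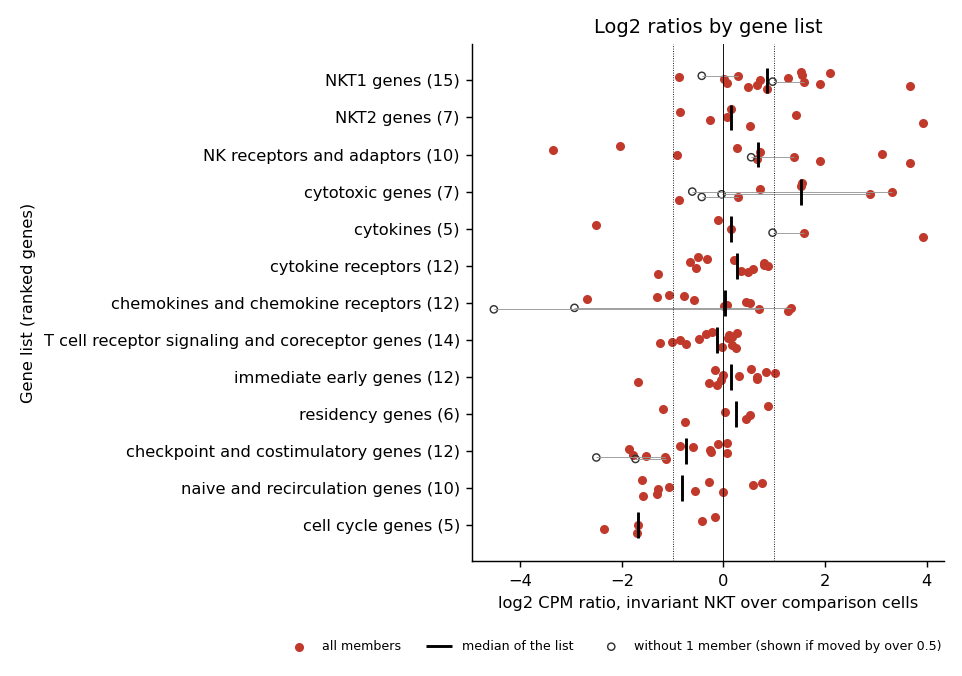
Log2 ratio of CPM, invariant NKT cells over comparison cells, for the ranked genes of 13 lists, with the number of ranked genes in brackets, the list median as a black bar and dotted lines at a ratio of 2 either way. Open circles give the value without the member with the most *Ccl4* UMIs where it moved by more than 0.5. The median is 0.85 for NKT1 genes, −0.73 for checkpoint and costimulatory genes and −0.82 for naive and recirculation genes.

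Genes of the NKT1 subset were higher in 7 of 15 ranked cases and lower in none. Over all ranked genes 2.37% were higher. The median log2 ratio was 0.85 against −0.03 over all ranked genes. *Ly6c2*, a Ly6 family surface protein, stood at 894 CPM (793 to 1005) against 207 (4.31-fold, 3.78 to 4.91) and was detected in 43 members. *Klrk1*, which encodes the activating receptor NKG2D, stood at 108 CPM against 28.9 (3.74-fold, 2.51 to 5.42). *Ctsw*, a cathepsin of cytotoxic lymphocytes, stood at 254 CPM against 87.4 (2.90-fold, 2.27 to 3.68) with UMIs in 42 members. *Fasl*, the ligand of the death receptor Fas, was 2.93-fold higher (1.65 to 4.90), and *Xcl1*, a chemokine for cross-presenting dendritic cells, 2.42-fold higher (1.42 to 3.90). *Ifng* stood at 254 CPM against 84.4, a ratio of 3.004 (2.34 to 3.81) that came to 1.96 without the *Ccl4*-rich cell and to 1.36 with cells of at most 2500 genes. The seventh was *Klrb1c*. Without that cell 6 of 15 were higher. With cells holding a UMI of the myeloid or melanoma markers left out, 5 of 14 were higher, with a median of 0.47. With members free of *Cd8a*, *Cd8b1* and *Foxp3*, 6 of 14 were higher, with a median of 0.71. Several of these genes recur in the NK receptor, cytotoxic and cytokine lists, so the lists are not separate evidence. *Cxcr3*, the receptor for interferon-induced chemokines, stood at 152 CPM against 145, and *Ccl5* at 1614 against 1605, with 150 of its 509 UMIs in 1 cell.

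Of the NKT2 genes 2 of 7 ranked were higher (2.37% over all ranked genes). These were *Il4* and *Plac8*, a small cysteine-rich protein, at 419 CPM against 155 (2.71-fold, 2.24 to 3.25). *Il13*, another type 2 cytokine, had 0 UMIs in members and 13.9 CPM in comparison cells, where it was detected in 14 cells (0.76%). *Il17rb*, a receptor chain for IL-25, had 4 UMIs in 3 members. The median of this list was 0.15. Of the 12 NKT17 genes only *Maf* could be ranked, at 149 CPM against 216 (0.69-fold, 0.506 to 0.925). *Il17a* had 0 UMIs in the members and 21.03 CPM in the comparison cells, at least 2.21-fold lower by the limit of 3 counts. That limit takes UMIs as spread evenly over cells, but *Il17a* was detected in 16 comparison cells (0.87%). With *Il13* and *Il17a* in so few cells, the absence of both from the members cannot show a lower level. *Il23r*, the IL-23 receptor chain, had 0 UMIs as well, and *Ccr6* had 1.

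The NK receptors gave 4 higher and 2 lower genes of 10 ranked, against 2.37% and 4.06% of all ranked genes. *Klra1*, a receptor of the Ly49 family, stood at 98.3 CPM against 11.2 (8.74-fold, 5.53 to 13.5) with UMIs in 14 members. *Klra9* stood at 38.1 CPM against 1.79 and *Klra3* at 25.4 against 1.79, both with too few UMIs to be ranked, while *Klra7* had 0 UMIs in the members. Genes of this family are near copies, so the split between them is uncertain. *Klrc1*, which encodes the inhibitory NKG2A chain, was 2.63-fold higher (1.42 to 4.53) with 7 of its 15 UMIs in 1 cell, and 1.46-fold without the *Ccl4*-rich cell. *Cd160* stood at 44.4 CPM against 6.68 but had too few UMIs to be ranked, with 6 of its 14 UMIs in 1 cell. Not past the fold were *Klrg1* at 41.2 CPM against 77.4 (0.53-fold, 0.281 to 0.919), *Klrd1* at 1.57-fold and *Cd226* at 1.64-fold. *Hcst*, the adaptor of NKG2D, stood at 755 CPM against 630. *Tyrobp*, the adaptor shared with myeloid cells, stood at 12.7 CPM against 130, and its ratio of 0.10 became 1.19 when cells with myeloid or melanoma transcripts were left out.

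The cytotoxic genes gave 4 of 7 ranked genes higher (2.37% over all ranked genes), but 2 of these were *Prf1* and *Gzmc*. Without the *Ccl4*-rich cell 2 of 5 were higher, *Ctsw* and *Fasl*. *Gzmb*, the main granzyme of activated cytotoxic cells, stood at 488 CPM against 400 and had a ratio of 0.74 without that cell. *Gzma* stood at 50.7 CPM against 92.6. *Nkg7*, a granule protein, stood at 720 CPM against 439 (1.64-fold, 1.42 to 1.88) and at 1.41-fold without it. *Gzmb* was detected in 29.5% of members and 28.7% of comparison cells, *Gzma* in 7.69% and 6.58% and *Gzmc* in 3.85% and 2.99%.

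Of 17 cytokine genes 5 were ranked, with *Il4* and *Ifng* higher and *Areg* lower (2.37% higher and 4.06% lower over all ranked genes). *Areg*, the EGF receptor ligand amphiregulin, stood at 31.7 CPM (15.2 to 58.3) in members, 180 in comparison cells (0.18-fold, 0.0843 to 0.325) and 561 in *Foxp3*-positive cells. *Ltb* and *Cd40lg*, ligands of the TNF superfamily, stood at 1069 CPM against 964 and at 114 against 123. *Il21* and *Il22* had 0 UMIs, and *Il2* had 1. Of 12 ranked cytokine receptors none was higher, and *Il2ra*, the high-affinity IL-2 receptor chain, was lower (44.4 CPM against 108, 0.41-fold, 0.224 to 0.695). Receptor chains for IL-12 and IL-18, the cytokines that activate NKT cells without antigen, lay between the limits: *Il18r1* at 133 CPM against 76.1 (1.75-fold, 1.24 to 2.40), *Il18rap* at 1.74-fold (1.07 to 2.69) and *Il12rb1* at 1.83-fold (1.08 to 2.93). *Il7r* was 1.496-fold (1.24 to 1.79). *Il1rl1*, the IL-33 receptor chain, had 4 UMIs in 2 members.

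Naive and recirculation genes were lower in 5 of 10 ranked cases and higher in none, with a median of −0.82. Over all ranked genes 4.06% were lower, and the median was −0.03. *Ccr7*, the chemokine receptor for lymph node entry, stood at 47.6 CPM against 118. *Klf2*, the factor that sustains recirculation, stood at 371 CPM against 900 (0.41-fold, 0.340 to 0.495). *S1pr1*, the exit receptor, stood at 50.7 CPM against 106, and *Actn1*, an actin crosslinker, at 22.2 against 67.5. *S1pr1* was no longer past the fold under 3 of 13 other settings. The naive-cell factors *Lef1* and *Tcf7* were not past the fold, with 140 CPM against 140 and 171 against 253, and *Satb1* was 1.68-fold (1.38 to 2.03). Of 6 ranked residency genes *Rgs1* was lower (190 CPM against 434). The others were not past the fold and went both ways. *Cxcr6*, a receptor of tissue lymphocytes, stood at 228 CPM against 167, and *Itgal*, the LFA-1 integrin chain, at 260 against 180. *Rgs2* stood at 254 CPM against 137 and *Itgb2* at 184 against 180. *Cd69* stood at 257 CPM against 432 (0.59-fold, 0.471 to 0.742).

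Checkpoint and costimulatory genes were lower in 5 of 12 ranked cases and higher in none, with a median of −0.73. Over all ranked genes 4.06% were lower, and the median was −0.03. *Ctla4*, the inhibitory receptor for B7 ligands, stood at 117 CPM against 401 (0.29-fold, 0.206 to 0.405). *Tnfrsf4*, which encodes OX40, stood at 149 CPM against 542 (0.28-fold, 0.202 to 0.367). *Tigit* stood at 82.4 CPM against 238, *Pdcd1*, which encodes PD-1, at 34.9 against 76.8 (0.454-fold, and 0.301-fold without the *Ccl4*-rich cell), and *Lag3* at 50.7 against 112, with 10 of its 16 UMIs in the *Ccl4*-rich cell. *Lag3* was 0.18-fold without this cell, and *Tnfrsf9*, which encodes 4-1BB, went from 0.66-fold to 0.49-fold. *Cd28* and *Cd27* were not past the fold. Comparison cells had no *Foxp3* UMI by rule, but 3 of the 4 ranked Treg markers were lower in the members (*Ctla4*, *Il2ra* and *Ikzf2*). The part of Treg cells with undetected *Foxp3* among the comparison cells was not tested.

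TCR signaling and coreceptor genes were lower in 2 of 14 ranked cases (4.06% over all ranked genes). *Cd4* stood at 105 CPM against 249 (0.42-fold, 0.288 to 0.593). *Cd5*, a negative regulator of TCR signaling, stood at 140 CPM against 280, a ratio of 0.498 (0.360 to 0.671) that lay at the limit and came to 0.519 without the *Ccl4*-rich cell. *Lck* and *Zap70*, the proximal kinases, stood at 495 CPM against 441 and at 152 against 142. Of 12 ranked immediate early genes *Dusp1*, a MAP kinase phosphatase, was higher (824 CPM against 409, 2.02-fold, 1.77 to 2.29) and *Nr4a2* lower (5 UMIs). *Fos* stood at 656 CPM against 679 and *Junb* at 1579 against 1588. Of 5 ranked cell cycle genes 3 were lower, against 4.06% of all ranked genes. These were *Mki67* (15.9 CPM against 51.8), *Top2a* (12.7 against 64.6) and *Stmn1* (38.1 against 122). *Mki67* was detected in 5 members and *Top2a* in 4.

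The 10 lowest ratios were held by *H2-Aa*, *Cxcl2*, *Dct*, *Ifitm2*, *H2-Eb1*, *C1qb*, *Ptgds*, *Ccl2*, *Ccl6* and *Lyz2*. *H2-Aa*, an MHC class II chain, had 0 UMIs in the members and 110 CPM in comparison cells, at least 11.5-fold lower by the limit of 3 counts. That limit takes UMIs as spread evenly over cells, but *H2-Aa* was detected in 3.65% of comparison cells. *Dct*, an enzyme of melanin synthesis, had 1 UMI in members against 159 CPM, and *Lyz2*, the lysozyme of myeloid cells, stood at 12.7 CPM against 234. Of the 10 genes, *Lyz2* and *C1qb* were on the list of myeloid markers and *Dct* on that of melanoma markers. The source of the other transcripts was not tested. Summed over 14 such markers, members held 9 UMIs in 7 cells (28.5 CPM) and comparison cells 4666 UMIs in 238 cells (761 CPM), of which 94.3% sat in 30 cells with at least 10 each. With all cells that held a UMI of these markers left out of both groups, *Ccl2* had a ratio of 1.33 and *Ptgds* of 1.70. Each of these 2 ratios rests on 1 UMI in the members, so neither shows a higher level. *H2-Aa*, *H2-Eb1*, *Cxcl2*, *Ifitm2* and *Ccl6* had 0 UMIs in the members. Their levels in the remaining comparison cells are not given here, so these zeros cannot be read as lower levels. *Klrb1c*, *Il4*, *Zbtb16* and *Tcrg-C4* then had ratios of 12.5, 14.8, 29.9 and 20.8.

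Some genes of the members stood near the level of CD8 cells, and others were above or below it. *Ctsw* stood at 254 CPM in members and 261 in CD8 cells, *Klrk1* at 108 and 121, and *Ly6c2* at 894 and 1047, a ratio of 0.854 with an interval below 1 (0.756 to 0.963). *Ifng* stood at 254 CPM in both, but at 165 CPM in members without the *Ccl4*-rich cell. Other effector genes were lower in members than in CD8 cells, with ratios of 0.107 for *Gzma*, 0.295 for *Gzmb*, 0.333 for *Ccl5*, 0.340 for *Klrd1*, 0.400 for *Xcl1* and 0.405 for *Nkg7*. *Ctsw*, *Klrk1*, *Ly6c2* and *Ifng* were lower in *Foxp3*-positive cells, at 36.1, 5.94, 43.5 and 24.0 CPM. *Gata3*, in contrast, was 3.28-fold higher in members than in CD8 cells (2.40 to 4.41), and stood at 120 CPM in *Foxp3*-positive cells. The levels of *Zbtb16*, *Il4* and *Tcrg-C4* in the members exceeded those of all 3 other groups with intervals that did not overlap. *Ctla4* and *Tnfrsf4* were highest in *Foxp3*-positive cells (1048 and 1342 CPM), and *Klf2* in comparison cells, with 377 CPM in CD8 cells against 371 in members.

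**Figure D4:**
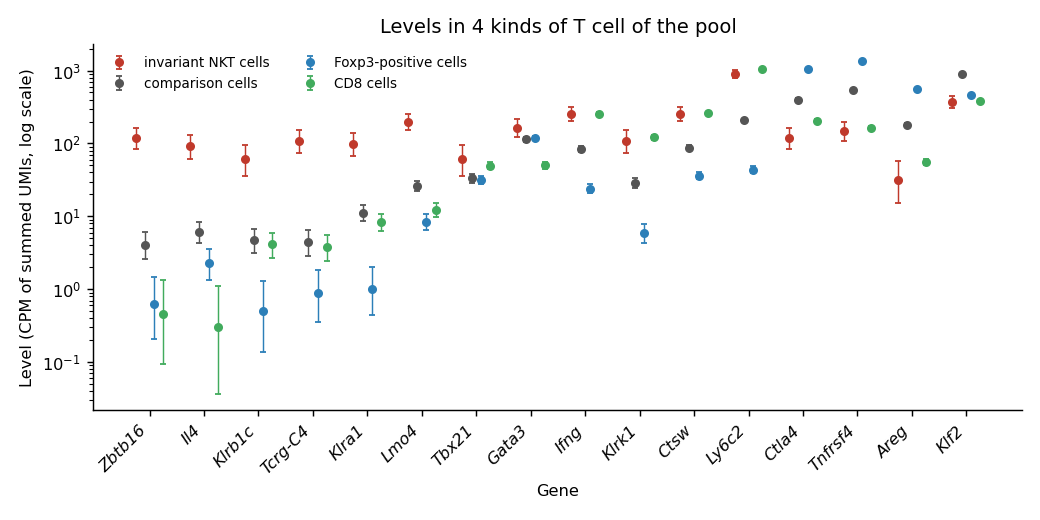
Level of 16 genes in CPM of summed UMIs, on a log scale, in invariant NKT cells, comparison cells, *Foxp3*-positive cells and CD8 cells of the same pool, with exact 95% Poisson intervals. *Zbtb16*, *Il4*, *Klrb1c* and *Tcrg-C4* stand at 60.3 to 117 CPM in invariant NKT cells and under 10 CPM in the other groups, whereas *Ctsw* and *Ly6c2* are near their CD8 levels. *Ifng* is at its CD8 level at 254 CPM and at 165 CPM without the member with the most *Ccl4* UMIs.

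The members differed among themselves in which of the sparse transcripts were caught. *Gata3* was detected in 37 members, *Ifng* in 17, *Tbx21* in 14 and *Il17a* in none. *Zbtb16* and *Il4* were detected together in 9 members, *Il4* and *Gata3* in 12, *Il4* and *Ifng* in 3 and *Tbx21* and *Gata3* in 10. *Klrb1c* shared 1 member with *Zbtb16* and 1 with *Il4*. Of the 15 NKT1 genes a member held a median of 5 (0 to 10), of the 10 NKT2 genes 3 (1 to 7) and of the 12 NKT17 genes 0 (0 to 3). With 1 to 3 UMIs a cell, a subset could not be assigned to single cells.

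Members also lay near each other when the TCR genes were ignored. For each cell with a TRA contig the 20 nearest cells were found in 50 principal components of 2000 variable genes, TCR genes left out, an analysis added after the data were seen. A member had on average 6.58 members among its 20 nearest cells (median 6, highest 18), where an even mix would give 0.323, and a comparison cell had 0.338. The rest of a member's neighbors were mainly comparison cells, 9.38 on average, with 2.27 CD8 cells and 1.42 *Foxp3*-positive cells. At least 5 members stood among the neighbors of 47 members, and 10 members had none.

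**Figure D5:**
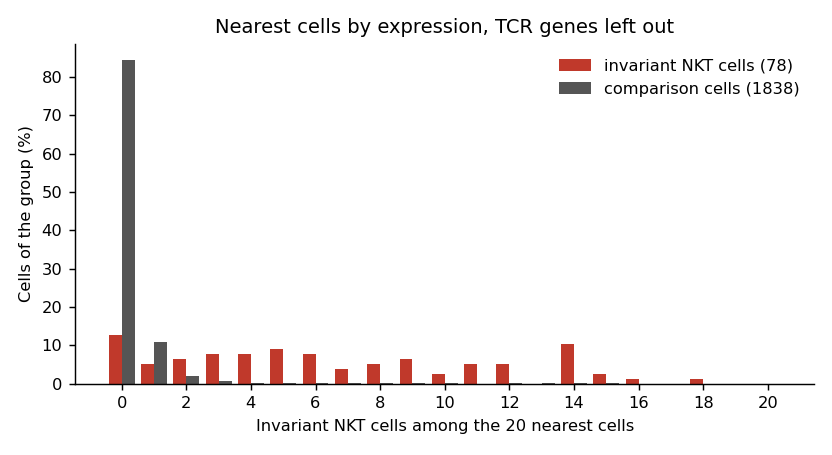
Number of invariant NKT cells among the 20 nearest cells by expression, TCR genes left out, as the percent of 78 invariant NKT cells and of 1838 comparison cells. Most comparison cells (84.4%) have 0, as against 12.8% of the invariant NKT cells, whose counts run up to 18.

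*Zbtb16* was also detected in 19 comparison cells. These had on average 7.21 members among their 20 nearest cells (median 8), but were chosen by a gene that enters the components. Of the 17 with a productive beta chain, 9 had a TRBV13, 2 a TRBV29 and 2 a TRBV1 segment.

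A hashtag was read on few cells, mostly from 1 UMI, so that the tumor of origin is uncertain even for these. A hashtag of a single tumor was found on 9 members, all 9 of B16 and 0 of B16–IL-33. If each tag is right, this allows a B16–IL-33 share of up to 33.3%. Of 184 tagged comparison cells 16 (8.70%, 5.05 to 13.7) carried a B16–IL-33 tag. No tag had more than 2 UMIs on a member, and with at least 2 required 1 member remained. A difference in the share of members between the tumors was not detectable at this depth.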

How the data were processed

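The authors deposited raw counts of UMIs per gene and barcode, with a matrix header of Cell Ranger 3.1.0 and a combined human and mouse (mm10) reference, while the submitters' processing notes name Cell Ranger 6.1.1. They also deposited raw counts of UMIs per hashtag and a table of filtered TCR contigs with counts of UMIs per contig. Neither cells nor genes were filtered before deposit by the paper's limits, of which the lower gene limit and the mitochondrial limit were kept here. UMIs were summed over the cells of a group and scaled to CPM in Python 3.11.15 (NumPy 2.4.6, SciPy 1.17.1). Levels have exact Poisson intervals, ratios exact conditional binomial intervals, shares Clopper-Pearson intervals and differences of shares square-and-add intervals, at 95%. These cover counting error only, and no p-value was computed, since 1 pool is 1 sample. A count of 0 was taken to allow 3 counts. Thinned shares used 1500 UMIs a cell. The code was tested on simulated data. Genes named are those of fixed lists that passed the fold or define a list, and the 10 highest and 10 lowest ratios. The members, lists and tests were chosen with earlier results of these data known. Identifiers of 30934 of 31053 genes matched GENCODE vM21 (GRCm38), which gave coordinates and germline segments. Alternatives covered the cell and contig filters, the comparison cells, CPM totals, limits on UMIs and fold, depth and single cells. The whole-tumor and other libraries of the study were not analysed here. Some genes of the lists are not reported here.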

Additional observations from a re-analysis of the deposited data

How the results depend on the processing

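No paired analysis was possible because there was 1 pool and no result came from a test. Restricting members to contigs with at least 2 UMIs left 42 (0.870% of cells with a TRA contig), 48 genes higher and 88 lower, and 11 list genes higher. Members with no other TRA contig made up 1.14%. A minimum of 5 expected UMIs gave 206 genes higher and 380 lower, with 41 list genes lower, and a minimum of 20 gave 32 and 61, with 9 list genes higher. A ratio of 1.5 gave 302 and 415 genes (32 and 41 list genes), and a ratio of 3 gave 26 and 45 (11 and 15), against 87 and 149 (18 and 26) in the report. The share of members with a *Zbtb16* UMI was 34.6% unthinned, and that with an *Il4* UMI 7.69% at 1000 UMIs. With at least 2 tag UMIs, 1 member carried a B16 tag. The differences in TRBV13, TRBV29 and TRBV1 use stayed within their intervals under every alternative run. Of 1726 ratios of 133 listed or named genes under 13 alternatives, 1571 stayed within the gene's interval and 133 left it. The other 22 belonged to genes past the fold whose ratio crossed 1. Crossings of 1 by genes not past the fold, such as *Ccl3*, were not counted apart. *Ccl4* fell to 0.16 with at most 2500 genes, 0.059 with a productive contig, 0.14 with members free of *Cd8a*, *Cd8b1* and *Foxp3*, 0.14 with no other TRA contig and 0.69 as a mean of each cell's own CPM. *Prf1* fell to 0.38, 0.79, 0.69 and 0.47 under the first 4 of these. *Id3* had 0.85 with at most 2500 genes and 0.68 with at least 2 contig UMIs. *Ptgds* had 1.57 with at most 2500 genes, on 1 UMI in the members. Without the *Ccl4*-rich cell, chosen after the data were seen, *Ccl4*, *Gzmc* and *Prf1* had 0.13, 0.98 and 0.65. Without cells holding myeloid or melanoma transcripts, also chosen afterwards, they had 0.19, 0.96 and 0.78, *Fcer1g* 1.36, *Tyrobp* 1.19, *Ptgds* 1.70 and *Ccl2* 1.33. The values of *Ptgds* and *Ccl2* rest on 1 UMI each in the members. Several of these values rest on a single cell, as described; the cause of the other changes was not tested.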
